A study of Homo sapiens with 9 samples.

Results

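Integrins are the receptors with which epithelial cells hold on to the matrix beneath them, and TNS4 is a tensin, an adaptor that binds their inner tails. The genes described here are TNS4 and the integrin subunits ITGA2, ITGA3, ITGA5, ITGA6, ITGAV, ITGB1, ITGB4, ITGB5 and ITGB6, 10 genes in all, taken from a table of 15354 genes by matching Ensembl identifiers to these symbols. ITGB6 was not analysed here, so 9 of the 10 genes are described. TNS4 was chosen because it stood more than 3-fold lower than control with both siRNAs, and its values are therefore given as a description with no test. The integrins were taken as a family. The cells were HCT116, an established human colorectal cancer line, reverse transfected with siRNA at 25 nM. Control cells received a commercial siRNA with no target, and siRNA A and siRNA B were designed against the long non-coding RNA SNHG5, so that all 3 groups had been transfected. Each group held 3 RNA-seq libraries, which the study's methods call biological replicates. The limma p-values below set each difference against the spread of libraries within groups. That spread was estimated from all 9 libraries and drawn toward a trend over all tested genes. The groups are named after their labels throughout.

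Each integrin is a pair of 1 alpha and 1 beta subunit, and the pair decides which matrix protein is bound. ITGB1 is the shared partner of ITGA2 (collagen), ITGA3 and ITGA6 (laminin), ITGA5 (fibronectin) and ITGAV, whereas ITGB4 pairs with ITGA6 in hemidesmosomes, the plaques that tie keratin filaments to laminin, and ITGB5 pairs with ITGAV as a receptor for vitronectin. Tensins dock on the beta tail. TNS4, also called CTEN, lacks the actin-binding part of the other tensins and is known for its raised expression in colorectal tumours.

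The libraries held between 15566530 and 23277549 reads, and every member was read at least 122 times in each. SNHG5, the targeted RNA, stood at 22.1 to 31.3 CPM (reads as a share of the library total, brought to a fixed common total and scaled between libraries by trimmed mean of M values, TMM) in the control libraries. Among the libraries labelled siRNA A its range was 58.8 to 71.5 CPM, and among those labelled siRNA B 46.1 to 50.3 CPM, higher in all 6 and so against the labels. Every direction below is therefore one between labelled libraries. The PCR with which the study checked the knock-down was not analysed here. The epithelial markers KRT8, KRT18, KRT19, EPCAM and CDH1 each stood at 28.8 CPM or more in every library. KRT8 rose with both siRNAs, KRT18 and KRT19 rose and EPCAM fell with siRNA A, and the part of these shifts in the results was not tested. Of 4 fibroblast markers 3 were in the table, with a summed level of at most 0.386 CPM before TMM scaling and LUM at 0 reads throughout. ITGAM, the 1 leukocyte marker in the table, stood at 0.529 CPM or less.

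The direction of weak differences depended on the scaling. On the TMM scale the median log2 difference over all tested genes was −0.02 with siRNA A and 0.0043 with siRNA B, and with library totals alone it was −0.34 and −0.18. The share of higher genes among all calls was 46.4% with siRNA A, 46.0% with siRNA B and 47.6% between the siRNAs on the TMM scale. With library totals alone these shares were 16.1%, 18.8% and 27.4%.

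Promoters are shown for the 2 subunits that rose with both siRNAs and for ITGA2, which fell with siRNA B. They are RefSeq sequences on GRCh38.p14, each with 250 bases before and 50 after an annotated start, printed 5′ to 3′ along the gene. Capitals mark exact matches, on either strand, to GGAATG (the core of TEAD sites), TGANTCA (AP-1) and GGGCGG (SP/KLF).
ITGB1, chr10:32958181-32958480, minus strand: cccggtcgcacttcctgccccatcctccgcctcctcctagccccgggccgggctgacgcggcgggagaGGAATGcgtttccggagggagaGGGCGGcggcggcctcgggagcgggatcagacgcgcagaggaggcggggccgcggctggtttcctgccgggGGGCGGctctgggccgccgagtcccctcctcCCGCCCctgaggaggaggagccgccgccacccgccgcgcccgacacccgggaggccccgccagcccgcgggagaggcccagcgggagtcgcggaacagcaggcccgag
ITGA5, chr12:54419217-54419516, minus strand: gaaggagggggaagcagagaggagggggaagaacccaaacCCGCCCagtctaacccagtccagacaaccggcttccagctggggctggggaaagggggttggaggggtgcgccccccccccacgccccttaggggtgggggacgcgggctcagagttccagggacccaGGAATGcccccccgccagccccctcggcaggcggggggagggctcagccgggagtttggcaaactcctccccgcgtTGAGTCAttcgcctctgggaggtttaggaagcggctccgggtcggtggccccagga
ITGA2, chr5:52989102-52989401, plus strand: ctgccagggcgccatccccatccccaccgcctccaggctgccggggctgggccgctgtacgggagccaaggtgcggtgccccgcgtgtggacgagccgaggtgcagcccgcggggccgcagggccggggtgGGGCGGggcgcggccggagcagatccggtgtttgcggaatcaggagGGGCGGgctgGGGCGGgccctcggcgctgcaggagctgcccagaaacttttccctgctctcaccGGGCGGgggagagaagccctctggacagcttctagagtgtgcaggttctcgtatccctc
ITGB1 has a second start in the same collection, which is not shown and whose window held no match to any of the 3 motifs. The ITGB1 window shown held 1 GGAATG match and 3 GGGCGG matches. The ITGA5 window held 1 match to each of the 3 motifs, and the ITGA2 window held 4 GGGCGG matches and no other. The windows of ITGA6, ITGAV and ITGB5, which are not shown, held no match to GGAATG or TGANTCA. Of 35116 promoter windows of this length, 14.0% held GGAATG, 7.71% held TGANTCA and 45.0% held GGGCGG. A match is a run of letters and not a measured binding site.

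TNS4 (ENSG00000131746.8, minus strand of chromosome 17, from 38632080 to 38657875 on GRCh37) stood at 34.8, 55.8 and 42.0 TMM-scaled CPM in control replicates 1, 2 and 3. Under siRNA A it stood at 8.08, 13.8 and 6.54 CPM, and under siRNA B at 11.5, 12.1 and 10.0 CPM. All 6 siRNA libraries lay under the lowest control library, and the siRNA groups overlapped each other. The group means, each with the SD of 3 libraries, were 44.2 ± 10.7 CPM for control, 9.48 ± 3.84 CPM under siRNA A and 11.2 ± 1.07 CPM under siRNA B. On the scale of log2(CPM + 1) the differences from control were −2.14 and −1.87, or 4.41-fold and 3.64-fold lower. TNS4 was chosen by these values. The member nearest to the limit from outside was ITGB4, 1.86-fold and 1.72-fold lower. In bulk RNA fewer cells that express a gene and less RNA per cell cannot be told apart, here and below. TNS4 overlaps no annotated gene.

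**Figure D1:**
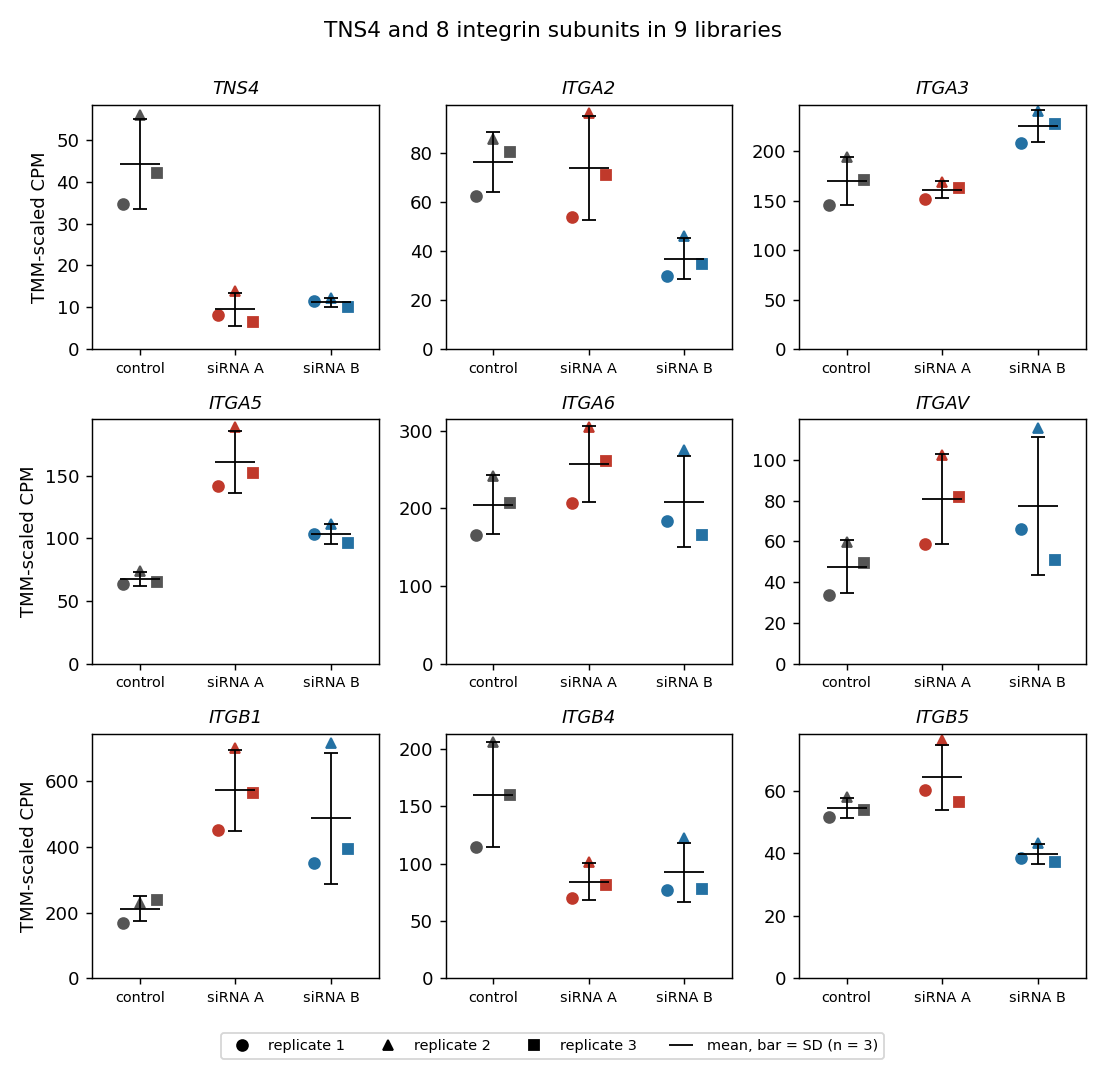
Each panel plots 1 gene, with TMM-scaled CPM on the vertical axis from 0 and the 3 groups on the horizontal axis. Symbols stand for libraries by replicate number, and the bar gives the mean and SD of 3 libraries. TNS4 sits at 34.8 to 55.8 CPM in control and at 6.54 to 13.8 CPM in the other 6 libraries, and the triangles (replicate 2) lie above the group mean in every panel.

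Among the beta subunits, ITGB1 rose and ITGB4 fell with both siRNAs. ITGB1, the common beta chain (ENSG00000150093.13, chromosome 10, 33176201 to 33294720, minus strand, GRCh37), measured 168, 228 and 239 CPM in control. It stood at 452, 701 and 563 CPM with siRNA A and at 350.3, 716 and 393 CPM with siRNA B, with no overlap between either group and control. The rise was 1.42 on the log2 scale with siRNA A (SE 0.25, adjusted p = 6.24e-04, limma) and 1.14 with siRNA B (SE 0.25, adjusted p = 0.00449, limma). The siRNA B libraries were spread widely, since replicate 2 held 716 CPM and the others at most 393 CPM.

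ITGB4, the laminin receptor chain of hemidesmosomes (ENSG00000132470.9, chromosome 17, 73717408 to 73753899, plus strand), stood at 115, 206 and 159.9 CPM in control. It stood at 70.4, 102 and 81.2 CPM with siRNA A, below every control library. With siRNA B it stood at 77.3, 122 and 78.2 CPM, and replicate 2 of that group lay above control replicate 1. The log2 differences were −0.89 (SE 0.22, adjusted p = 0.00593, limma) and −0.78 (SE 0.22, adjusted p = 0.0192, limma). The siRNA B call did not survive leaving out control replicate 2 or 3, or replicate 1 or 3 of siRNA B (−0.78 to −0.60, adjusted p from 0.0552 to 0.0803, limma). ITGB4 overlaps GALK1 on the other strand, ITGA2, ITGA5, ITGA6, ITGAV, ITGB1 and ITGB5 overlap non-coding genes, and whether the counting used strand was not given in the sources used here.

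ITGB5, the beta chain that pairs with ITGAV, stood at 54.6 ± 3.28 CPM in control, 64.4 ± 10.5 CPM under siRNA A and 39.7 ± 3.20 CPM under siRNA B (SD, n = 3). The siRNA B libraries, at 37.3 to 43.3 CPM, lay below all control libraries, at 51.7 to 58.2 CPM. ITGB5 fell by 0.45 with siRNA B (SE 0.12, adjusted p = 0.0144, limma), and without siRNA B replicate 3 the value was −0.41 (adjusted p = 0.0503, limma). With siRNA A the difference was 0.22 with a 95% interval from −0.04 to 0.49 (adjusted p = 0.147, limma), and with library totals alone it was −0.14.

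Among the alpha subunits, ITGA5 rose with both siRNAs. This fibronectin receptor chain (ENSG00000161638.6, chromosome 12, 54789045 to 54813050, minus strand) stood at 63.3, 73.6 and 65.0 CPM in control, at 141, 188 and 152 CPM with siRNA A and at 103, 111 and 95.8 CPM with siRNA B. The 3 groups did not overlap, and the siRNA B libraries lay between the other groups. The rise was 1.23 with siRNA A (SE 0.12, adjusted p = 1.54e-05, limma) and 0.61 with siRNA B (SE 0.12, adjusted p = 0.00245, limma). ITGAV stood at 33.6 to 59.5 CPM in control, 58.5 to 103 CPM under siRNA A and 51.1 to 116 CPM under siRNA B, so each siRNA group overlapped control. Its differences were 0.76 (SE 0.29, adjusted p = 0.0462, limma) and 0.65 (SE 0.29, adjusted p = 0.106, limma). The siRNA A call did not survive leaving out control replicate 1 or 3, siRNA A replicate 2 or 3 or replicate 1 of siRNA B (0.53 to 0.80, adjusted p from 0.0604 to 0.164, limma). It was also lost with library totals alone (0.39, adjusted p = 0.236, limma), with no filter on low genes (0.76, adjusted p = 0.0608, limma) and with DESeq2 on reads (0.80, adjusted p = 0.0828). With the replicate number entered as a block over all 9 libraries it was held (0.76, adjusted p = 0.00144, limma). The labels state no pairing of the libraries. A siRNA B call was gained without siRNA B replicate 3 (0.90, adjusted p = 0.0342, limma).

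ITGA2, the collagen receptor chain (ENSG00000164171.5, chromosome 5, 52285170 to 52390609, plus strand), fell with siRNA B. It stood at 62.5, 85.9 and 80.6 CPM in control and at 29.7, 46.1 and 34.9 CPM with siRNA B, with no overlap. The log2 difference was −1.04 (SE 0.21, adjusted p = 0.00280, limma). With siRNA A it stood at 54.1, 96.3 and 71.1 CPM, on both sides of the control libraries, and the difference was −0.07 with a 95% interval from −0.53 to 0.38 (adjusted p = 0.787, limma). That difference had the opposite sign, at 0.0059 and 0.13, without control replicate 2 and without siRNA A replicate 1.

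ITGA3, a laminin receptor chain, stood at 146 to 195 CPM in control and 209 to 241 CPM with siRNA B, and rose by 0.41 (SE 0.12, adjusted p = 0.0168, limma). The call did not survive leaving out control replicate 1 (0.30, adjusted p = 0.0752, limma) or 3 (0.40, adjusted p = 0.0553, limma) and with library totals alone (0.20, adjusted p = 0.224, limma). With siRNA A it stood at 152 to 169 CPM, inside the control range, and differed by −0.07 with a 95% interval from −0.32 to 0.18 (adjusted p = 0.635, limma). That value was 0.18 after correction for GC content and 0.019 without control replicate 2, and with library totals alone it was −0.44 (adjusted p = 0.00839, limma). ITGA6, partner of both ITGB1 and ITGB4, overlapped between all groups, at 165 to 241 CPM in control, 207 to 305 CPM under siRNA A and 166 to 276 CPM under siRNA B. Its differences were 0.33 (95% interval −0.11 to 0.77, adjusted p = 0.194, limma) and 0.0075 (−0.43 to 0.45, adjusted p = 0.982, limma). Same-numbered libraries of control and siRNA A deviated together for replicates 1 and 2 (correlations 0.646 and 0.411) and hardly for replicate 3 (0.130). Replicate 3 of control and of siRNA B correlated at −0.386. Once the replicate number entered as a block over all 9 libraries, ITGA6 passed the threshold with siRNA A (0.33, adjusted p = 0.0272, limma). With library totals alone the value was −0.04.

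**Figure D2:**
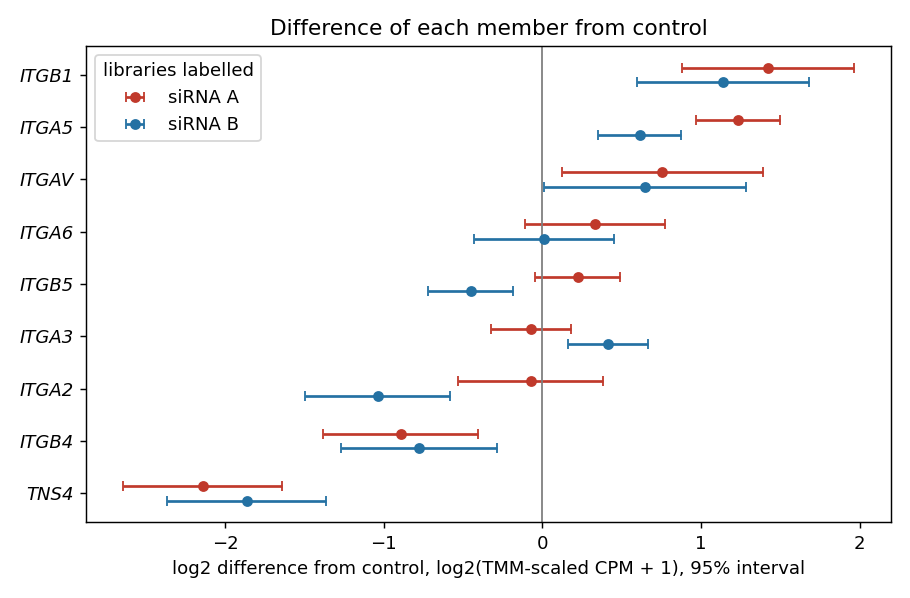
The horizontal axis gives the difference from control on the scale of log2(TMM-scaled CPM + 1), with 95% intervals from the fit over all genes, for libraries labelled siRNA A (red) and siRNA B (blue). The intervals of ITGB1 and ITGA5 lie right of 0 and those of ITGB4 left of 0 for both siRNAs. TNS4, at −2.14 and −1.87, is shown as a description. Its intervals are no test, because it was chosen by these differences.

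As a list, 3 of the 8 integrins rose with siRNA A (ITGB1, ITGA5 and ITGAV) and 1 fell (ITGB4), where 23.9% and 27.6% of all 13893 tested genes rose and fell. With siRNA B 3 rose (ITGB1, ITGA5 and ITGA3) and 3 fell (ITGB4, ITGA2 and ITGB5), against 15.6% and 18.3% of all genes. With both siRNAs 2 rose and 1 fell, against 10.2% and 11.7% of all genes. The median difference of the 8 was 0.28 with siRNA A and 0.21 with siRNA B, beside −0.02 and 0.0043 over all tested genes. The comparisons with control share the control libraries.

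Between the siRNAs 4 of the 8 integrins differed. ITGA2, ITGA5 and ITGB5 were higher with siRNA A, where 17.6% of all genes were, and ITGA3 was lower, where 19.5% were. The difference of siRNA A minus siRNA B was 0.97 for ITGA2 (adjusted p = 0.00404, limma), 0.62 for ITGA5 (adjusted p = 0.00222, limma), 0.68 for ITGB5 (adjusted p = 0.00146, limma) and −0.48 for ITGA3 (adjusted p = 0.00702, limma). For ITGB1 it was 0.28 with a 95% interval from −0.26 to 0.83 (adjusted p = 0.395, limma), and 0.60 without siRNA B replicate 2 (adjusted p = 0.0289, limma). For ITGB4 it was −0.11 (95% interval −0.60 to 0.38, adjusted p = 0.720, limma) and for ITGAV 0.11 (95% interval −0.53 to 0.74, adjusted p = 0.800, limma). ITGA6 differed by 0.32 (adjusted p = 0.233, limma), and by 0.54 without siRNA B replicate 2 (adjusted p = 0.0354, limma).

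Levels of different genes were compared per kilobase of annotated exon. In control ITGA6 stood highest at 30.6 ± 5.70 CPM per kilobase, followed by ITGB4 at 23.7 ± 6.76, ITGA3 at 17.4 ± 2.49 and ITGB1 at 14.5 ± 2.61 CPM per kilobase (SD, n = 3 each). ITGA2, ITGA5, TNS4 and ITGB5 followed at 9.67 ± 1.55, 9.12 ± 0.743, 9.07 ± 2.19 and 8.38 ± 0.503, which did not differ beyond their spread, and ITGAV stood at 2.46 ± 0.674. ITGB1 came first with siRNA A, at 39.3 ± 8.56 CPM per kilobase, and with siRNA B, at 33.4 ± 13.7, and did not differ from ITGA6 (38.6 ± 7.35 and 31.2 ± 8.80) beyond the spread. TNS4 stood at 1.95 ± 0.789 and 2.30 ± 0.220, under every integrin of the list. The order depends on the length used. With the longest transcript in place of all exons ITGB1 came first in control too, at 37.7 CPM per kilobase. By that length ITGB1 stood at 102 ± 22.2 with siRNA A, beside 44.3 ± 8.44 for ITGA6. With siRNA B the values were 86.7 ± 35.7 and 35.8 ± 10.1.

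**Figure D3:**
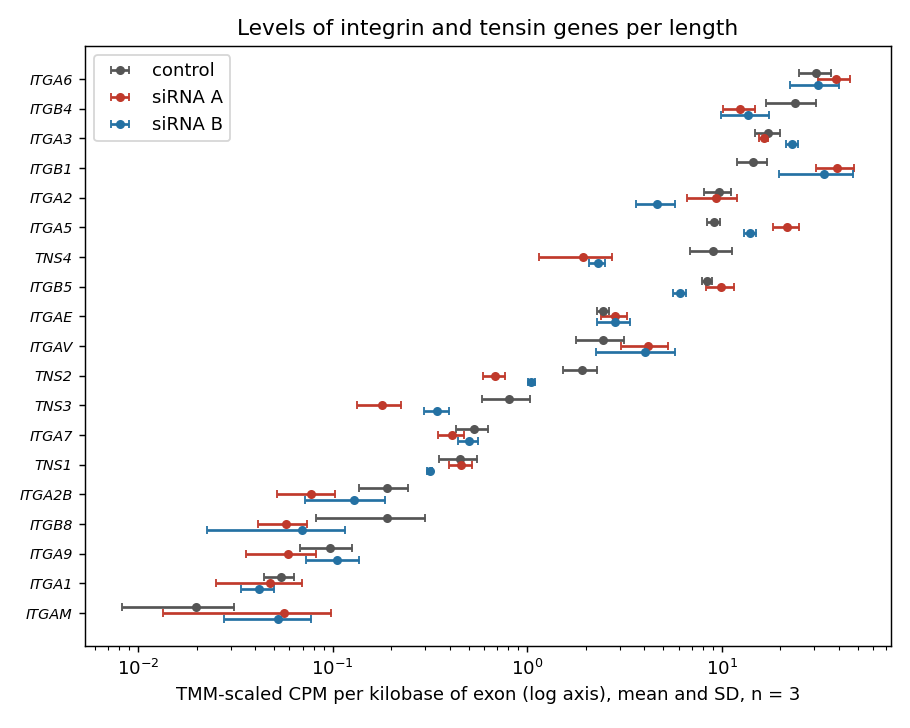
The horizontal log axis gives TMM-scaled CPM per kilobase of exon for each integrin and tensin gene in the table, as mean and SD of 3 libraries, coloured by group and ordered by the control level. ITGB1 moves from 14.5 in control to 39.3 and 33.4, and TNS4 moves from 9.07 to 1.95 and 2.30.

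A shift between groups in the balance of subunits can be read from ratios of reads within a library, where no scaling enters. The pairs of genes were chosen after their values were seen. The ratios are not corrected for gene length, so their size in any group does not give the balance itself. They are also not corrected for GC content, which was 39.2% for ITGB1, 63.6% for ITGB4, 54.5% for ITGA5 and 40.1% for ITGA2. After that correction the differences of ITGB1 and ITGB4 from control were 1.29 and −0.62 with siRNA A. With siRNA B they were 1.03 and −0.61. ITGB1 had 1.47, 1.10 and 1.49 reads per read of ITGB4 in the control libraries, 6.42, 6.89 and 6.93 with siRNA A and 4.53, 5.86 and 5.03 with siRNA B. The groups did not overlap. The ratio was 5.02-fold higher with siRNA A and 3.81-fold higher with siRNA B than in control, each with an exact two-sided permutation p = 0.1, the smallest that 3 against 3 libraries allow. ITGA5 had 0.892 ± 0.107 reads per read of ITGA2 in control, 2.23 ± 0.339 under siRNA A and 2.88 ± 0.546 under siRNA B (SD, n = 3). All 6 siRNA libraries, at 1.96 or more, lay above the control libraries, at 1.01 or less. The exact permutation p was again 0.1 for each siRNA. These p-values decide nothing, because the pairs were picked from the same values and no lower p was possible.

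**Figure D4:**
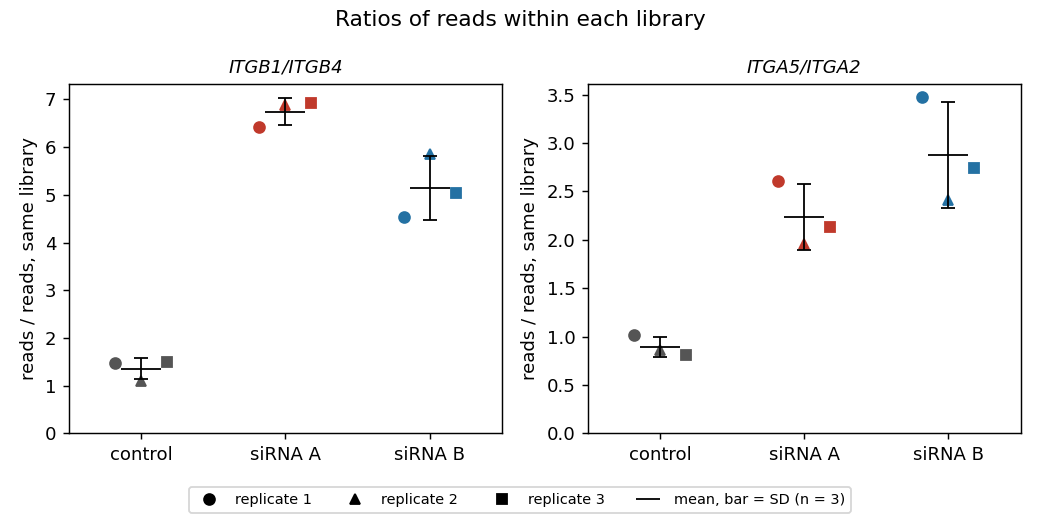
The vertical axes, from 0, give reads of ITGB1 per read of ITGB4 (left) and of ITGA5 per read of ITGA2 (right) in each library, with the mean and SD of each group. Control libraries sit at 1.10 to 1.49 and 0.807 to 1.01, below every siRNA library.

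The other tensins were set beside TNS4. TNS2 and TNS3, which carry the actin-binding part that TNS4 lacks, fell with both siRNAs. TNS3 stood at 7.62, 13.2 and 9.65 CPM in control, 1.60, 2.49 and 2.68 CPM with siRNA A and 5.10, 3.94 and 3.99 CPM with siRNA B, with no overlap between any groups. Its differences were −1.76 (SE 0.20, adjusted p = 3.63e-05, limma) and −1.04 (SE 0.20, adjusted p = 0.00203, limma). TNS2 stood at 15.2 ± 2.94 CPM in control, 5.42 ± 0.678 under siRNA A and 8.38 ± 0.343 under siRNA B, with differences of −1.32 (SE 0.15, adjusted p = 3.37e-05, limma) and −0.77 (SE 0.15, adjusted p = 0.00204, limma). TNS2 overlaps SPRYD3 on the other strand. TNS1 stood at 7.41 ± 1.66, 7.50 ± 1.03 and 5.17 ± 0.150 CPM, and its difference was 0.03 with siRNA A (95% interval −0.32 to 0.38, adjusted p = 0.894, limma) and −0.43 with siRNA B (−0.78 to −0.07, adjusted p = 0.0600, limma). TNS2 and TNS3 were lower with siRNA A than with siRNA B, by −0.55 (adjusted p = 0.0121, limma) and −0.72 (adjusted p = 0.0137, limma), and the latter was lost without siRNA A replicate 1 or replicate 1 of siRNA B (−0.57 and −0.62, adjusted p = 0.0562 and 0.0580, limma). For TNS4 the same difference was −0.28, which is a description and no test, because TNS4 was chosen by its fall with both siRNAs. TNS4 had 4.38 ± 0.171 reads per read of TNS3 in control, 4.35 ± 1.67 under siRNA A and 2.61 ± 0.427 under siRNA B.

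**Figure D5:**
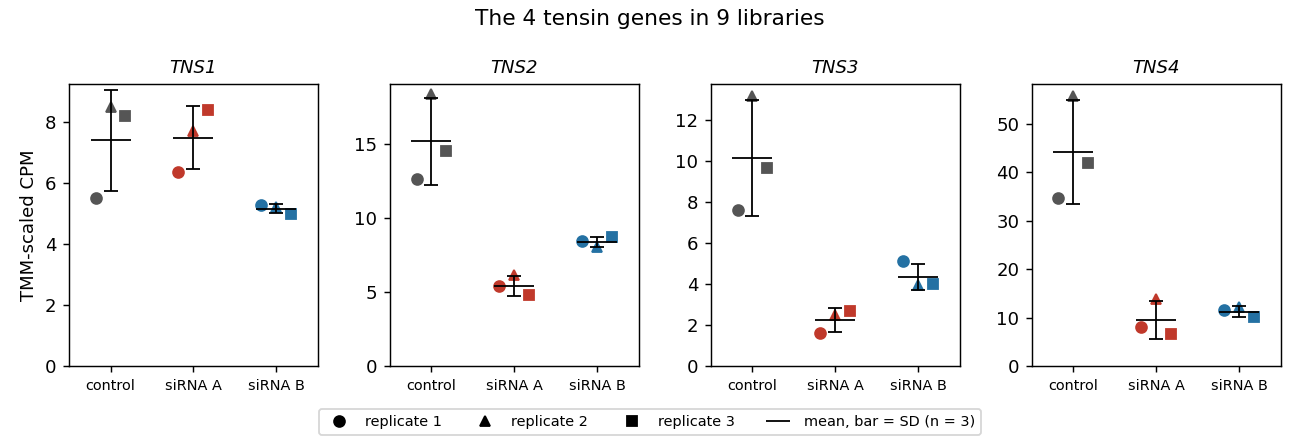
Each panel plots 1 tensin gene, with TMM-scaled CPM on the vertical axis from 0, symbols for libraries by replicate number and bars for the mean and SD of 3 libraries. TNS2, TNS3 and TNS4 lie below control in all 6 siRNA libraries, and TNS1 with siRNA A does not, at 7.50 against 7.41 CPM.

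Per kilobase of exon ITGAE, a chain known from lymphocytes, stood with ITGAV in control, at 2.46 ± 0.175 CPM per kilobase. ITGA7 stood at 0.531 ± 0.0997, and ITGB8, ITGA1, ITGA2B, ITGA9 and ITGAM had control means of 0.190 CPM per kilobase or less. Of the whole family 15 genes were in the table and 13 were tested, of which 3 rose and 3 fell with siRNA A and 3 rose and 4 fell with siRNA B. Of all tested genes 23.9% and 27.6% rose and fell with siRNA A and 15.6% and 18.3% with siRNA B, so that 3 of 13 (23.1%) lay near the share over all genes with siRNA A. ITGB8, another partner of ITGAV, stood at 2.87 ± 1.63 CPM in control, 0.876 ± 0.246 under siRNA A and 1.05 ± 0.711 under siRNA B, from as few as 12 reads. It differed by −0.97 (adjusted p = 0.0170, limma) and −0.88 (adjusted p = 0.0378, limma). The siRNA A call did not survive leaving out control replicate 2 (−0.66, adjusted p = 0.0768, limma) or replicate 3 of siRNA A (−0.88, adjusted p = 0.0625, limma). The siRNA B call did not survive leaving out control replicate 2 or 3, siRNA A replicate 3 or replicate 1 or 3 of siRNA B (−0.88 to −0.57, adjusted p from 0.0524 to 0.156, limma). ITGA2B was lower with siRNA A, by −0.53 (adjusted p = 0.0259, limma), and the call did not survive leaving out siRNA A replicate 1 or 2 (−0.53 and −0.46, adjusted p = 0.0594 and 0.0803, limma) or a correction for GC content (−0.29, adjusted p = 0.186, limma).

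The genes around the integrins were taken as lists. Of 15 matrix ligands tested, 6 rose and 4 fell with siRNA A, beside 23.9% and 27.6% of all tested genes, and 6 rose and 3 fell with siRNA B, beside 15.6% and 18.3%, with median differences of 0.37 and 0.23. LAMB3, a laminin beta chain, and LAMC1, a laminin gamma chain, rose with both siRNAs. LAMB3 rose from 54.4 ± 10.4 CPM to 152 ± 23.5 and 138 ± 16.9 CPM (adjusted p = 2.58e-05 and 9.16e-05, limma) and LAMC1 by 1.07 and 0.95 (adjusted p = 5.98e-04 and 0.00223, limma). LAMA2, a chain of another laminin, differed most between the siRNAs, by 1.45 (adjusted p = 0.00208, limma).

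Of 22 adaptors tested, 6 rose and 7 fell with siRNA A (27.3% and 31.8%, beside 23.9% and 27.6% of all tested genes) and 3 rose and 7 fell with siRNA B (13.6% and 31.8%, beside 15.6% and 18.3%). FERMT2 (kindlin-2), which activates integrins by binding the beta tail, rose from 46.3 ± 4.93 to 141 ± 14.1 and 113 ± 20.1 CPM (adjusted p = 6.37e-06 and 5.49e-05, limma). TLN2, a talin that binds the same tail, differed by −1.23 and −1.37 (adjusted p = 9.00e-04 and 8.36e-04, limma), and the kinase-like adaptor ILK by −0.32 and −0.63 (adjusted p = 0.0247 and 0.00106, limma). The siRNA A call of ILK did not survive leaving out control replicate 2 or replicate 1 or 3 of siRNA A (−0.30 to −0.24, adjusted p from 0.0721 to 0.101, limma), and after correction for GC content the value was −0.16 (adjusted p = 0.212, and 0.135 with the replicate block, limma). FLNA, filamin A, which joins the beta tail to actin, stood at 915 ± 192 CPM in control, 874 ± 108 under siRNA A and 171 ± 28.3 under siRNA B, with a difference of 2.36 between the siRNAs (adjusted p = 5.91e-06, limma).

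Of 14 signalling genes tested, 3 rose and 6 fell with siRNA A (21.4% and 42.9%, beside 23.9% and 27.6% of all tested genes) and 4 rose and 5 fell with siRNA B (28.6% and 35.7%, beside 15.6% and 18.3%). GIT1, a scaffold of adhesion turnover, fell by 1.56 and 1.16 (adjusted p = 3.69e-06 and 4.80e-05, limma), the small GTPase RAP1B fell by 0.40 and 0.88 (adjusted p = 0.0188 and 3.45e-04, limma), and the Src-family kinase YES1 rose by 0.43 and 0.47 (adjusted p = 0.0294 and 0.0309, limma). Neither YES1 call survived leaving out any 1 control library, nor, for siRNA A, its replicate 2 or 3 and, for siRNA B, its replicate 1 or 2 (0.31 to 0.49, adjusted p from 0.0551 to 0.108, limma). With library totals alone YES1 differed by 0.07 and 0.26 (adjusted p = 0.717 and 0.195, limma), and after correction for GC content by 0.27 and 0.33 (adjusted p = 0.131 and 0.0942, limma), where adding the replicate block kept the siRNA A call (adjusted p = 0.0449, limma). The call of RAP1B with siRNA A was lost without control replicate 3 or replicate 1 of siRNA A (−0.34 and −0.31, adjusted p = 0.0765 and 0.0857, limma). PTK2, the focal adhesion kinase, differed by −0.54 with siRNA A (adjusted p = 0.00270, limma) and 0.40 with siRNA B (adjusted p = 0.0215, limma). The latter did not survive leaving out control replicate 1 or 2 or replicate 2 of siRNA B (0.30 to 0.41, adjusted p from 0.0545 to 0.0885, limma), and with library totals alone the value was 0.19 (adjusted p = 0.219, limma).

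Of 12 trafficking genes tested, 6 rose and 1 fell with siRNA A, where 23.9% and 27.6% of all tested genes did, and 5 rose and 1 fell with siRNA B, where 15.6% and 18.3% did. RAB4A and RAB21, GTPases of integrin recycling and uptake, rose by 0.72 and 0.60 (adjusted p = 8.25e-05 and 5.25e-04, limma) and by 0.83 and 0.50 (adjusted p = 1.07e-04 and 0.00512, limma). With library totals alone RAB21 differed by 0.29 with siRNA B (adjusted p = 0.0786, limma). The clathrin heavy chain CLTC rose by 0.81 with siRNA A (adjusted p = 5.75e-04, limma) and 0.41 with siRNA B (adjusted p = 0.0387, limma), and the latter did not survive leaving out any 1 control library, replicate 3 of siRNA A or replicate 1 or 2 of siRNA B (0.32 to 0.44, adjusted p from 0.0504 to 0.143, limma) and was 0.20 with library totals alone (adjusted p = 0.270, limma). RAB25, a GTPase known to bind ITGB1, differed by 0.62 between the siRNAs (adjusted p = 0.00328, limma). Of 7 hemidesmosome and tetraspanin genes, 3 rose and 1 fell with siRNA A, where 23.9% and 27.6% of all tested genes did, and 2 rose and 1 fell with siRNA B, where 15.6% and 18.3% did. PLEC, plectin, which binds the ITGB4 tail, fell by 0.55 and 0.57 (adjusted p = 0.00812 and 0.0104, limma), and after correction for GC content differed by −0.27 and −0.42 (adjusted p = 0.172 and 0.0577, limma, and 0.0816 with siRNA A and the replicate block). The tetraspanins CD9 and CD151 rose by 0.46 and 0.55 (adjusted p = 0.00917 and 0.00534, limma) and by 0.42 and 0.54 (adjusted p = 0.0233 and 0.0104, limma). The CD151 call with siRNA A did not survive leaving out control replicate 2 or 3 or replicate 1 of siRNA A (0.34 to 0.37, adjusted p from 0.0779 to 0.0902, limma), that with siRNA B without control replicate 3 (0.47, adjusted p = 0.0510, limma), and with library totals alone CD9 and CD151 differed by 0.09 and 0.06 with siRNA A, and CD151 by 0.33 with siRNA B (adjusted p = 0.102, limma). CD81, another tetraspanin, differed by 0.49 between the siRNAs (adjusted p = 0.0139, limma), and by 0.37 without siRNA A replicate 2 (adjusted p = 0.0538, limma). Of 5 tested partners of TNS4, 2 rose and 1 fell with siRNA A, where 23.9% and 27.6% of all tested genes did, and 1 rose and 1 fell with siRNA B, where 15.6% and 18.3% did, so that the shares with siRNA B lay near those over all genes. CTNNB1, beta-catenin, which TNS4 has been found with in colon cancer cells, rose by 0.43 with siRNA A (adjusted p = 0.0136, limma) and fell by 0.72 with siRNA B (adjusted p = 0.00120, limma). The rise did not survive leaving out control replicate 1 or replicate 2 of siRNA A (0.34 and 0.33, adjusted p = 0.0542 and 0.0542, limma), and with library totals alone the difference was 0.06 (adjusted p = 0.721, limma).

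The genes whose profiles lay nearest to TNS4 were found by the root mean square of the log2 difference between centred profiles over the 9 libraries. LRP5, a Wnt co-receptor, came first at 0.226, followed by ATP2A3, a calcium pump, at 0.230, IGSF9 at 0.261, HPCAL4 at 0.273 and RAB11FIP4, a Rab11 effector, at 0.277. The median over the 13884 other tested genes was 1.02. TNS3 came at rank 73, at 0.434. The fall by which TNS4 was chosen is part of its profile, so the gap between near genes and the median follows in part from that choice. The genes named were picked by this distance, so their likeness to TNS4 is a description and no test. LRP5 stood at 44.8 ± 9.97 CPM in control, 11.1 ± 5.15 under siRNA A and 12.1 ± 4.72 under siRNA B (SD, n = 3), beside 44.2, 9.48 and 11.2 CPM for TNS4. IGSF9 was counted at as few as 2 reads in a library.

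The 9 genes also moved together within groups. All 9 lay above their group's mean in replicate 2 of control, of siRNA A and of siRNA B, by a median of 0.20, 0.28 and 0.34 on the log2 scale. In replicate 1 of control and of siRNA A 0 of 9 did. Over all tested genes the median deviation of each library was at most 0.00998 in size. The share of all tested genes above their group's mean is not given here. Replicate 2 was also the library with the fewest reads in every group. It held 15566530 reads under siRNA A, 16340856 under siRNA B and 19313669 among the controls. Whether read depth had a part in the pattern was not tested. Without replicate 2 of any group, an alternative chosen after the data were seen, 4, 6 and 4 integrins were called with siRNA A, with siRNA B and between them, the same numbers as with all libraries. The differences of TNS4 from control were then −2.25 and −1.75.

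GC content moved with the differences. Over 13502 tested genes with a GC value, split into 5 classes by the GC content of the longest transcript, the class with the lowest had a median difference of 0.16 with siRNA A and 0.14 with siRNA B, and the class with the highest had −0.24 and −0.15. ITGB1, ITGAV and ITGA2, at 39.2%, 33.5% and 40.1% GC, lay in the lowest class, and ITGB4 and ITGA3, at 63.6% and 61.3%, in the highest. TNS4 had 57.9% GC. With the GC trend of each library removed, the differences were 1.29 and 1.03 for ITGB1 (adjusted p = 0.00108 and 0.00710, limma), 1.37 and 0.71 for ITGA5 (adjusted p = 1.2e-05 and 0.00121, limma), −1.13 for ITGA2 with siRNA B (adjusted p = 0.00183, limma), and −1.95 and −1.73 for TNS4. ITGB4 kept its call with siRNA A (−0.62, adjusted p = 0.0467, limma) and lost it with siRNA B (−0.61, adjusted p = 0.0675, limma), ITGAV lost its call with siRNA A (0.56, adjusted p = 0.129, limma) but held it where the replicate block was added (0.56, adjusted p = 0.00371, limma), and ITGB5 gained one with siRNA A (0.36, adjusted p = 0.0274, limma). With the GC correction and the block ITGB4 and ITGB5 were called with siRNA A (adjusted p = 5.59e-04 and 0.00438, limma), and ITGA6 was not (0.26, adjusted p = 0.0525, limma).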

How the data were processed

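RNA-seq of 9 HCT116 libraries was analysed from 1 table of CPM values (reads of a gene over the library total, at a fixed common total), which the authors deposited and which, per the labels, rests on TopHat2 alignment to GRCh37 (hg19) and HTSeq counting. Versions and strand use were not given in the sources used here. All values were whole reads within 0.01 read, and library totals of 15566530 to 23277549 reads were recovered from them. A CPM of 1 then rests on few reads, so low genes are less precise. Values were TMM-scaled (edgeR 4.0.16), and the 13893 genes that reached 1 CPM in 3 or more libraries were fitted as log2(CPM + 1) with limma 3.58.1 (trend, 3 groups, all 9 libraries) in R 4.3.3, with Benjamini-Hochberg adjustment over all of them and a threshold of 0.05. Fold changes on this scale understate those of low genes. The script was tested on simulated data.

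Members and gene lists were chosen with earlier results of these data known. Named beside the integrins and tensins were, from each list, up to 3 genes called with both siRNAs in 1 direction, the 1 with the largest called difference between siRNAs, and the 5 profiles most like TNS4. A gene that this rule names is not reported here. Alternatives were library totals alone, DESeq2 size factors, a pseudocount of 0.1, no filter, a replicate block, 2 groups only, edgeR and DESeq2 1.42.0 on the recovered reads, and leaving out each library. Leaving out replicate 2 of every group and a GC correction (lowess, span 0.3) were added after the data were seen. Deviations from the group means correlated between same-numbered libraries of control and siRNA A at 0.646, 0.411 and 0.130, from the data and not from a stated pairing, and at 0.173, 0.445 and −0.386 between control and siRNA B and 0.204, 0.442 and 0.0190 between the siRNAs. Gene positions are GENCODE annotation on GRCh37, and promoters are RefSeq on GRCh38.p14, with 6 of the 9 genes matched. ITGB6 and the endothelial markers were not analysed here.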

Additional observations from a re-analysis of the deposited data

Results flagged for a closer look

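The differences between the libraries labelled siRNA A and siRNA B passed the threshold of the limma fit for 18 named genes, each value being siRNA A minus siRNA B on the log2 scale. Among the integrins these were ITGA2 (0.97), ITGA3 (−0.48), ITGA5 (0.62) and ITGB5 (0.68), and among the tensins TNS1 (0.46), TNS2 (−0.55) and TNS3 (−0.72). In the other lists they were LAMA2 (1.45), ILK (0.30), FLNA (2.36), GIT1 (−0.40), RAP1B (0.48), PTK2 (−0.95), RAB21 (0.34), CLTC (0.40), RAB25 (0.62), CD81 (0.49) and CTNNB1 (1.15). ITGA2 fell with siRNA B, and with siRNA A its difference from control did not pass the threshold. PTK2 and CTNNB1 passed the threshold in opposite directions against control. The TNS1 difference was lost without any 1 of control replicate 3, siRNA A replicate 2 or 3 and siRNA B replicate 1, 2 or 3 (0.38 to 0.47, adjusted p from 0.0501 to 0.138, limma). That of ILK was lost without control replicate 3, replicate 1 or 2 of siRNA A or any 1 siRNA B library (0.20 to 0.33, adjusted p from 0.0532 to 0.151, limma). The CLTC difference was lost without control replicate 3, replicate 2 or 3 of siRNA A or 1 or 3 of siRNA B (0.30 to 0.41, adjusted p from 0.0557 to 0.137, limma). That of RAB21 was lost without replicate 2 or 3 of siRNA A or 1 or 3 of siRNA B (0.25 to 0.35, adjusted p from 0.0697 to 0.132, limma), and that of GIT1 without replicate 1 or 3 of siRNA A or 2 of siRNA B (−0.37 to −0.32, adjusted p from 0.0567 to 0.0900, limma). With library totals alone the differences of TNS1 (0.32), ILK (0.15), RAP1B (0.34), RAB21 (0.18), CLTC (0.24) and CD81 (0.33) did not pass the threshold, and after correction for GC content that of GIT1 (−0.30) did not.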

How the results depend on the processing

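The counts of called genes stayed within 1.5 times of 7145 with siRNA A (5936 to 8093), 4719 with siRNA B (3399 to 5791) and 5155 between the siRNAs (3996 to 6305) under every alternative run. The number of integrin subunits called ranged from 3 to 5, 4 to 7 and 4 to 6. Of 24 pairs of an integrin and a comparison, 10 had the same call and direction in every alternative. Library totals alone turned the direction of ITGA6 (−0.038 with siRNA A, −0.20 with siRNA B), ITGB5 with siRNA A (−0.14) and ITGAV between the siRNAs (−0.045). The GC correction turned ITGA3 with siRNA A (0.18, also with the replicate block) and ITGA6 with siRNA B (−0.039, also with the block), and leaving out replicate 2 of every group turned the latter too (−0.09). Leaving out 1 library gave −0.28 to 0.13 for ITGA2 and −0.18 to 0.019 for ITGA3 with siRNA A, −0.21 to 0.15 for ITGA6 with siRNA B, and −0.15 to 0.44 for ITGAV and −0.25 to 0.10 for ITGB4 between the siRNAs. None of these differences was called with all libraries, and the cause was not tested. With the replicate block 8093, 5791 and 6229 genes were called, ITGA6 was called with siRNA A, and, where the numbers do not pair the libraries, ITGAV with siRNA B (0.65, adjusted p = 0.00631, limma) and ITGA6 between the siRNAs (0.32, adjusted p = 0.0381, limma). Between control and siRNA B and between the siRNAs not every library correlated best with its own number. The fold of the ITGB1 to ITGB4 ratio with siRNA B was 3.22 without replicate 2.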
